A study of Homo sapiens with 9 samples.

Results

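The genes described here are 5 genes of the NODAL signalling pathway, CRIPTO, NODAL, LEFTY1, LEFTY2 and GDF3, out of 18417 genes measured. They were chosen as named genes of this pathway, with earlier results of these data known. Each was read from the 1 transcript cluster (the set of probes that reports a gene) annotated to that name alone. CRIPTO is called TDGF1 in older annotation. The samples were NCCIT cells, a human embryonal carcinoma cell line derived from a germ cell tumour, which resembles pluripotent cells and forms embryoid bodies when kept from attaching. Embryoid bodies were labelled as grown with 50 mM ethanol and FA, with 50 mM ethanol, with FA, or untreated, each at day 21 and at day 7, and 1 array held undifferentiated NCCIT cells. FA is an additive whose full name and dose the labels do not give, and the protocol in the labels speaks of culture for 7 days, so day 21 is known from the sample titles alone. Each of the 9 conditions had 1 array, all from 1 cell line. With no replicate, the p-values rest on how far arrays depart from a model that adds up the effects of ethanol, FA and day. That departure includes any interaction the model leaves out. No label ties the arrays to separate cultures, so some or all of the rest may be technical.

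NODAL is a secreted ligand of the TGF-beta superfamily that patterns the early embryo. It binds activin receptors together with the cell-surface co-receptor CRIPTO, and the receptors phosphorylate SMAD2 and SMAD3, which enter the nucleus with SMAD4 and bind DNA with partners such as FOXH1. In pluripotent human cells NODAL or activin signalling is known to help keep the undifferentiated state, and NODAL, LEFTY1 and LEFTY2 are themselves known targets of the pathway, the LEFTY proteins acting as feedback inhibitors.

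Values are log2 expression values in which a difference of 1 is a doubling. Array medians lay between 7.667 and 7.765. The day 7 array with ethanol alone stood somewhat apart, its mean correlation across genes with the rest of day 7 being 0.990, while those arrays had 0.994 to 0.995. Values without it are given where it decides a result for a member. Effects come from 1 additive limma model per gene over all 9 arrays, so that the day, ethanol and FA effects are each the mean of 4 differences between matched arrays. The p-values are Benjamini-Hochberg adjusted over 12254 tested genes and called at 0.05. A gene was tested if it exceeded 7.71, the median of all values, on at least 1 array. CRIPTO, GDF3, LEFTY1 and LEFTY2 passed this filter and NODAL did not. The labelled cell type was checked against its markers: all 11 pluripotent or embryonal carcinoma markers with a cluster of their own, among them SOX2 and LIN28A, exceeded the filter. Of 4 germ cell markers NANOS3 and TFAP2C exceeded it and DDX4 and DAZL did not on any array, and of 5 endoderm markers SOX17, GATA4 and GATA6 exceeded it and FOXA2 and AFP did not. Of 5 primitive streak and mesoderm markers TBXT and EOMES did not exceed it, and of 3 trophoblast markers with a cluster of their own only GATA3 did.

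CRIPTO, the NODAL co-receptor, and GDF3, a TGF-beta superfamily ligand of pluripotent cells that also signals through CRIPTO, both fell strongly between day 7 and day 21. LEFTY1 and LEFTY2 did not pass the test, and NODAL itself was dim on every array. The start regions of CRIPTO and GDF3 are shown because these were the members that moved together. Each window covers 250 bases before to 50 bases after an annotated start, in the direction of transcription, from RefSeq on build GRCh38.p14, and 3 of the 5 members had one. CRIPTO has 2 annotated starts, at chr3:46574285-46574584 and chr3:46577538-46577837 on the plus strand, and the GDF3 window is chr12:7695726-7696025 on the minus strand. Capitals mark matches to the motifs described after the sequences.
CRIPTO, upstream start: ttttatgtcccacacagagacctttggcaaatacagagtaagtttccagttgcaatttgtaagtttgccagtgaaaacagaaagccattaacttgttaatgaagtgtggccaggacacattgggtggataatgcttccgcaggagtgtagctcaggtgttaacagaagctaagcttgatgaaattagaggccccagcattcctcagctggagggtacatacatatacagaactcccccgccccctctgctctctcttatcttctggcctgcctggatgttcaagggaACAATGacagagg
CRIPTO, downstream start: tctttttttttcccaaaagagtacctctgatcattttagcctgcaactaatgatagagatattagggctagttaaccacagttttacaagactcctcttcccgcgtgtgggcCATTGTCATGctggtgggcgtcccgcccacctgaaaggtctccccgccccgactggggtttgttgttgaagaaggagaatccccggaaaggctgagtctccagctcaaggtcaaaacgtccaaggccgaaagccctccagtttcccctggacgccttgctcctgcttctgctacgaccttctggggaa
GDF3: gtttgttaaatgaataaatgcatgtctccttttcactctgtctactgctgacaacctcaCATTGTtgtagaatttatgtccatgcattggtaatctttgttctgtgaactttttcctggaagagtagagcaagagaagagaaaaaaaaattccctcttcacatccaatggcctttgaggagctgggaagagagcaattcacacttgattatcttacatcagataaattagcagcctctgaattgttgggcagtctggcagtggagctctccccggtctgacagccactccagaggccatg

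Both strands of each window were searched for 5 kinds of motif. They were the SOX core CATTGT, the octamer ATGCAAAT of POU factors, a SOX and octamer composite made of CATTGT, any base and ATG, the SMAD palindrome GTCTAGAC, and FOXH1 in the forms AATCCACA, AATACACA, AATCAACA and AATAAACA. The CRIPTO downstream window held 1 composite match, CATTGTCATG, whose first letters are also its SOX match. It began at position -138 relative to the start. The same composite was present in 0.35% of all 35116 windows of this length. The motifs were chosen with the sequences seen, so this share only describes how common the letters are. Of the octamer the composite asks for the first letters ATG alone. The CRIPTO upstream window held 1 SOX match on its minus strand and the GDF3 window 1 on its plus strand, a motif found in 10.8% of all windows. None of the 3 windows, nor the NODAL window at chr10:70441632-70441931, held the octamer (1.77% of all windows), the SMAD palindrome (0.202%) or a FOXH1 form (4.05%), and the NODAL window held no SOX match either. A match is a description of letters and not of binding.

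CRIPTO (transcript cluster 8079422) had values of 10.21 with ethanol and FA, 10.51 with ethanol, 9.70 with FA and 9.98 untreated at day 21. At day 7 it had values of 12.40 with ethanol and FA, 12.16 with ethanol, 12.44 with FA and 12.45 untreated. Undifferentiated cells had 12.22. Every day 21 array was therefore below every day 7 array, while the day 7 arrays lay on both sides of the undifferentiated one. The day effect was a log2 difference of -2.27 ± 0.15 (SE of the fit), a 4.81-fold lower level at day 21 (limma, adjusted p = 1.13e-05). CRIPTO was lower in 4 of 4 matched pairs, with differences of -2.20 with ethanol and FA, -1.65 with ethanol, -2.74 with FA and -2.47 untreated. Among the 12254 genes tested, 14 had a lower day effect.

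**Figure D1:**
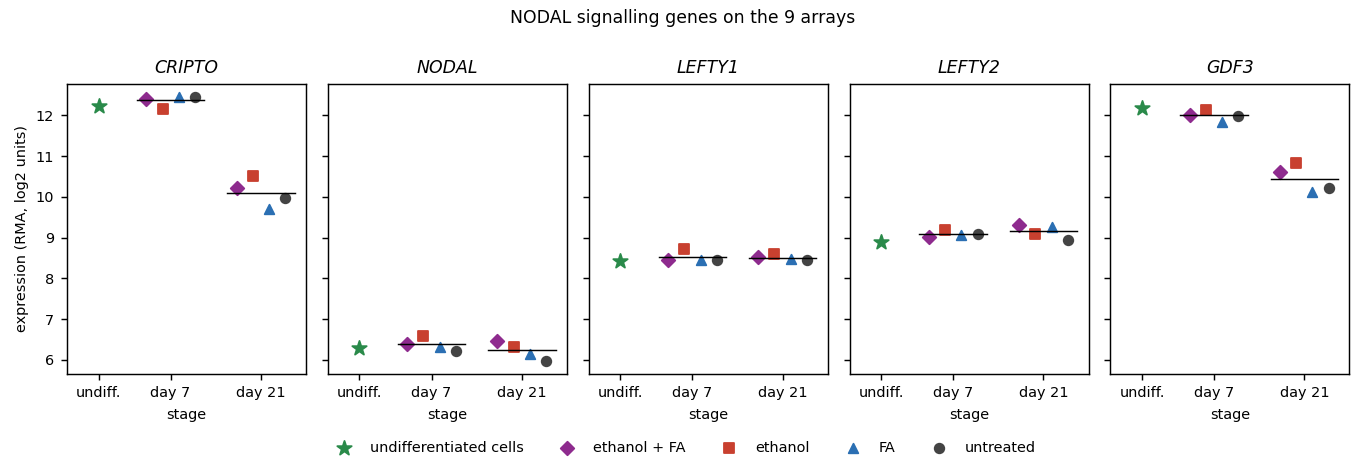
Expression (RMA, log2 units) of each member on the 9 arrays, by stage. Symbols give the treatment, and black lines give the mean of the 4 arrays of a day. CRIPTO and GDF3 lie between 9.70 and 10.82 at day 21 and above 11.8 at day 7 and in undifferentiated cells, while NODAL, LEFTY1 and LEFTY2 span at most 0.60 over all arrays. Heights in different panels come from different probes and are not compared.

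GDF3 (cluster 7960828) had values of 10.60 with ethanol and FA, 10.82 with ethanol, 10.12 with FA and 10.22 untreated at day 21. The day 7 values were 12.00 with ethanol and FA, 12.14 with ethanol, 11.85 with FA and 11.99 untreated, and undifferentiated cells had 12.19. The days did not overlap, and the undifferentiated array was the highest of the 9. GDF3 fell by 1.56 ± 0.08 on the log2 scale, a 2.95-fold lower level at day 21 (limma, adjusted p = 3.82e-06), and all 4 pairs were lower at day 21, with differences from -1.78 to -1.32.

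Of the 4 members tested, 2 passed the day test and both were lower at day 21. Over all genes tested 48.9% passed in either direction, 22.6% as lower and 26.3% as higher, so 2 of 4 members in either direction is near the background. The arrays of the days did not overlap for CRIPTO and GDF3, with day 21 lower, as for 21.4% of all genes tested. The histogram of day differences shows both in the lower tail: 0.114% of genes tested lay below CRIPTO and 0.473% below GDF3.

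**Figure D2:**
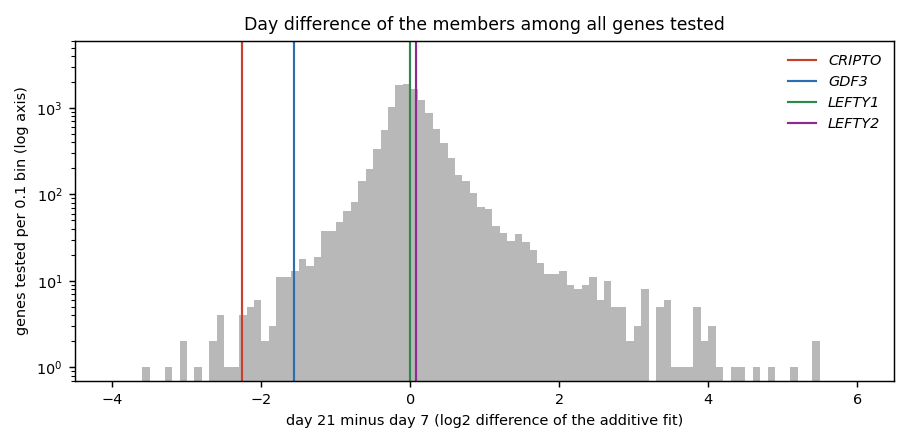
Day 21 minus day 7 (log2 difference of the additive fit) for all 12254 genes tested, with the number of genes per bin on a log axis. Vertical lines mark the 4 members tested: CRIPTO at -2.27, GDF3 at -1.56, LEFTY1 at -0.01 and LEFTY2 at 0.07.

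The signal of CRIPTO may be shared with CRIPTO3, a near-identical retrocopy on the X chromosome with its own cluster (8169385), which was looked at after the values of CRIPTO were seen. CRIPTO3 averaged 8.28 ± 0.50 at day 21 and 9.97 ± 0.13 at day 7 (SD, n = 4 arrays of different treatment), and fell by 1.69 ± 0.19 (limma, adjusted p = 2.23e-04). The probes cannot tell how much of either cluster's signal came from the other gene.

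NODAL (cluster 7934156), the ligand, stayed below the median of all values on all 9 arrays. Its day 21 values were 6.46 with ethanol and FA, 6.32 with ethanol, 6.15 with FA and 5.98 untreated. Its day 7 values were 6.39, 6.58, 6.32 and 6.21 in the same order of treatment, and undifferentiated cells had 6.28. The days overlapped. The day difference was -0.15 ± 0.07, and when the filter was dropped so that all 18417 genes were tested its adjusted p in limma was 0.133. The deposited table has no detection call, so whether NODAL was above background on any array is not known.

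LEFTY1 and LEFTY2, the secreted inhibitors of NODAL, are highly similar genes on chromosome 1, and their probes can share signal. LEFTY1 (cluster 7924663) had values from 8.46 to 8.60 at day 21 and from 8.45 to 8.72 at day 7, with 8.43 in undifferentiated cells. The highest of the 9 was the array of ethanol alone at day 7. Its day difference was -0.01 ± 0.06, with a 95% interval from -0.15 to 0.13 (limma, adjusted p = 0.928), and it was 0.05 with each array centred on its median and 0.04 without the day 7 array with ethanol alone, so its sign is not settled. LEFTY2 (cluster 7924682) had values from 8.95 to 9.32 at day 21 and from 9.01 to 9.19 at day 7, with 8.89 in undifferentiated cells. Its day difference was 0.07 ± 0.08, with a 95% interval from -0.12 to 0.27 (limma, adjusted p = 0.493).

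The other pathway genes moved in both directions between day 7 and day 21. Of 42 genes listed by role besides the members, 37 had a cluster of their own and 31 were tested, of which 8 rose and 9 fell, a share near that of all genes. The shares over all genes tested, 26.3% higher and 22.6% lower, apply to the counts by role below as well. Among the 8, LHX1 and PCSK5 entered the test only through their day 21 values. NANOG and POU5F1, targets in the list, are not analysed here because their clusters name several genes. The median day effect was -0.00 for the 31 genes and -0.01 for all genes tested. The 17 genes that passed had adjusted p-values in limma from 5.19e-07 (TGFBR3) to 0.0186 (ZFYVE9), and the plot by role shows each gene with its SE.

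Among ligands 1 of 2 tested genes fell: INHBE, an activin beta subunit gene, by 0.45 ± 0.12 (limma, adjusted p = 0.0143). INHBE was dim: it exceeded the filter only with ethanol alone at day 7 (8.07) and in undifferentiated cells (8.78). Its day pairs ran from -0.90 with ethanol alone to -0.15 untreated, so the fall leans on that day 7 array. INHBB, another activin subunit gene, had a difference of -0.12. Of the convertase genes, whose enzymes cleave precursors such as pro-NODAL, PCSK6 fell by 0.69 ± 0.05, PCSK5 rose by 0.46 ± 0.05 and FURIN had a difference of 0.07, 1 lower and 1 higher out of 3.

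Of 5 receptor genes tested besides CRIPTO, 2 rose and 2 fell. The type I receptor genes fell, ACVR1B (ALK4) by 0.33 ± 0.05 and ACVR1C (ALK7) by 0.37 ± 0.09. The type II receptor gene ACVR2A rose by 0.80 ± 0.11, and ACVR2B had a difference of 0.07. TGFBR3, which codes for the co-receptor betaglycan, rose by 1.46 ± 0.05, or 2.75-fold (limma, adjusted p = 5.19e-07).

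Of 10 transducer genes 2 rose and 3 fell. SMAD3 fell by 0.48 ± 0.05 while SMAD2 rose by 0.28 ± 0.07 and SMAD4 had a difference of 0.05. FOXH1, the DNA-binding partner of the SMADs, fell by 0.35 ± 0.07. TGIF1, a co-repressor of SMAD-driven transcription, fell by 0.69 ± 0.09, and ZFYVE9 (SARA), which brings SMADs to the receptor, rose by 0.25 ± 0.07. Limma's adjusted p for the 5 genes that passed lay between 1.28e-04 (SMAD3) and 0.0186 (ZFYVE9).

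Of 5 inhibitor genes tested besides the LEFTY genes, 2 fell and 1 rose. FST, which codes for the activin trap follistatin, fell by 0.90 ± 0.09, and the inhibitory SMAD gene SMAD7, also a target of the pathway, fell by 0.25 ± 0.05. SKIL, the SMAD co-repressor gene, rose by 0.63 ± 0.08. CER1 and DAND5, which code for secreted NODAL antagonists, were removed by the filter, with day differences of -0.23 and -0.06 in the fit of all 18417 genes. Of 6 target genes tested, 2 rose and none fell, where 26.3% of all genes tested passed as higher. They were LHX1, a homeobox gene, by 1.62 ± 0.06 and MIXL1 by 0.27 ± 0.05. LHX1 exceeded the filter only at day 21, with 9.06 to 9.24 against 7.46 to 7.66 at day 7, so it entered the test through its high day. With all 18417 genes tested its adjusted p in limma was 8.30e-07. The targets GSC (-0.05) and SOX17 (-0.15) did not pass, and EOMES, TBXT and FOXA2 were removed by the filter.

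**Figure D3:**
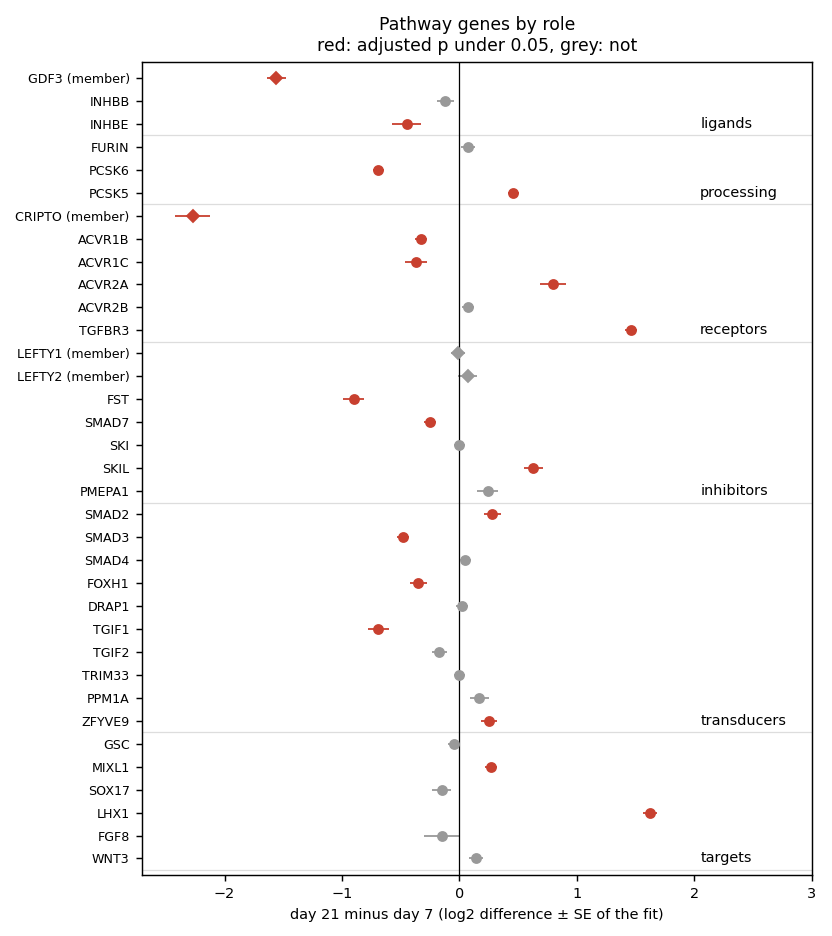
Day 21 minus day 7 (log2 difference ± SE of the fit) for the 4 members and 31 other pathway genes tested, grouped by role. Diamonds are members, and red marks an adjusted p under the threshold. CRIPTO at -2.27 and GDF3 at -1.56 are the lowest points, and LHX1 at 1.62 and TGFBR3 at 1.46 the highest.

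Markers of cell state moved with the decrease of CRIPTO and GDF3. Of 11 pluripotent or embryonal carcinoma markers, 10 fell and 1, LIN28B, rose between day 7 and day 21. Their mean level per array was 9.85 to 10.09 at day 21, 11.08 to 11.12 at day 7 and 11.32 in undifferentiated cells. Of 6 neural progenitor markers 4 rose and 0 fell, with mean levels of 9.99 to 10.12 at day 21, 7.88 to 8.12 at day 7 and 7.65 in undifferentiated cells. PAX6 rose by 4.32, MEIS1 by 4.81, MEIS2 by 2.73 and SOX3 by 0.45. SOX1 (0.15) and NES (-0.16) did not pass (limma, adjusted p = 0.0641 and 0.0644), so the list did not rise as a whole. PAX6 and MEIS1 averaged 6.26 and 6.41 at day 7, below the filter, and 10.58 and 11.22 at day 21. A marker above the filter only at day 21 can enter the test only as one that rose. Over all genes tested 26.3% passed as higher and 22.6% as lower. Of 3 primitive streak and mesoderm markers tested, 1 rose (MIXL1) and 1 fell (HAND1), and of 3 endoderm markers tested 1 rose (GATA6). The 1 trophoblast marker tested, GATA3, rose, and of 2 germ cell markers tested TFAP2C fell. GATA3 too averaged below the filter at day 7 (7.34, against 8.01 at day 21). The part of these markers in the result was not tested. In bulk samples, fewer cells that express a gene and less RNA per cell cannot be told apart.

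The genes whose pattern over the 9 arrays was most like that of CRIPTO were ETV1 (Pearson r = 0.997), L1TD1 (0.996), PADI2 (0.996), UGP2 (0.995) and GJA1 (0.994), out of 1552 genes that spanned at least 1 on the log2 scale. ETV1 codes for an ETS transcription factor, L1TD1 for an RNA-binding protein of pluripotent cells and GJA1 for a connexin of gap junctions. Those most like GDF3 were UGT3A2 (0.995), FAM124A (0.995), POLR3G (0.995), which codes for an RNA polymerase III subunit, the ETS factor gene ETV4 (0.994) and CYP2S1 (0.993). L1TD1 is also in the list of pluripotent markers. All 10 were lower at day 21, with day effects from -2.50 for L1TD1 to -1.11 for PADI2 and CYP2S1. The arrays fall into a day 21 set and a set of the rest, so these correlations mostly describe the step between days. NODAL was most like DRAXIN (0.934), SLC44A2 (0.882), DDAH1 (0.803), SCNN1A (0.794) and SLCO4C1 (0.768). For LEFTY1 and LEFTY2, which spanned 0.29 and 0.43, no r exceeded 0.644 (DLL1 with LEFTY2), and the highest for LEFTY1 was 0.607 (SLC44A2).

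Next to GDF3 on chromosome 12, in the order of RefSeq genes on GRCh38.p14, lies DPPA3, a gene of the early embryo and germline. It fell by 1.76 (limma, adjusted p = 0.00127) between day 7 and day 21. Of the 6 nearest protein-coding genes, 3 on each side, the only other gene tested was CD163L1, which fell by 0.23 (limma, adjusted p = 0.0289). Around CRIPTO on chromosome 3, 1 of the 6 nearest was tested, ALS2CL, which fell by 0.49 (limma, adjusted p = 5.15e-04). Over all genes tested 22.6% passed as lower. Near NODAL, PALD1 and ADAMTS14 passed with day effects of -0.21 and -0.31 (limma, adjusted p = 0.0359 and 0.0169). The other tested neighbours of NODAL and those of the LEFTY genes did not pass. These neighbours were looked at after the members' values were known.

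Relative to undifferentiated cells, CRIPTO and GDF3 were not far apart at day 7 and were much lower at day 21. Untreated day 7 embryoid bodies differed from undifferentiated cells by 0.23 for CRIPTO and -0.20 for GDF3, with 1 array each and no test. At that stage 1.66% of genes were at least 2-fold apart, and none of the 5 members was. Untreated day 21 embryoid bodies differed by -2.24 for CRIPTO, a 4.73-fold lower level, and by -1.98 for GDF3, a 3.93-fold lower level, and 7.17% of genes were at least 2-fold apart. In the additive fit, embryoid bodies without ethanol or FA, averaged over both days, differed by -1.03 ± 0.25 for CRIPTO (limma, adjusted p = 0.0183) and by -1.07 ± 0.14 for GDF3 (limma, adjusted p = 0.00185). Of the 4 members tested these 2 passed, against 28.1% of all genes in either direction and 17.2% as lower. Without the untreated day 21 array CRIPTO no longer passed, at -0.98 (limma, adjusted p = 0.062, with 0.00307 to 0.062 over all alternatives).

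LEFTY1 and LEFTY2 differed from undifferentiated cells by 0.08 ± 0.10 and 0.16 ± 0.14 in that fit, and NODAL by -0.14 ± 0.12. The LEFTY genes did not pass (limma, adjusted p = 0.639 and 0.449). Of the 31 other pathway genes 4 rose and 4 fell, a share near the 28.1% of all genes that passed in either direction. The increases were in TGFBR3 (0.93 ± 0.09), LHX1 (0.93 ± 0.10), ZFYVE9 (0.49 ± 0.11) and MIXL1 (0.29 ± 0.09). Untreated embryoid bodies differed from undifferentiated cells by 0.17 at day 7 and 1.70 at day 21 for TGFBR3. For LHX1 these differences were 0.10 and 1.68, and LHX1 entered the test only through its day 21 values. The decreases were in INHBE (-1.60 ± 0.20), DRAP1 (-0.45 ± 0.08), a FOXH1-binding repressor gene, SMAD7 (-0.31 ± 0.09) and PCSK6 (-0.28 ± 0.09). INHBE entered the test only through the undifferentiated array and the day 7 array with ethanol alone. With 1 array left out the 8 calls became 4 (untreated day 7), 5 (untreated day 21, FA day 7, or ethanol and FA day 21) or 6 to 11 (the rest), and MIXL1 and PCSK6 no longer passed without the filter (limma, adjusted p = 0.0677 each). This comparison rests on a single undifferentiated array and shares the day 21 and day 7 arrays with the day comparison.

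No member passed the test for ethanol, where 0.685% of all genes did, 0.563% as higher with ethanol (limma; 1 of the 4 members tested and 17.5% of all genes had an unadjusted p under 0.05). GDF3 came nearest: it was higher with ethanol by 0.35 ± 0.08, a 1.27-fold difference, in 4 of 4 pairs (limma, adjusted p = 0.112), as 18.5% of genes tested were. The pairs differed by 0.49 with FA and 0.60 without it at day 21, and by 0.15 with FA and 0.14 without it at day 7. NODAL was also higher in 4 of 4 pairs, by 0.27 ± 0.07, and its adjusted p in limma was 0.172 when all 18417 genes were tested. The NODAL pairs differed by 0.31 and 0.34 at day 21, with and without FA, and by 0.07 and 0.37 at day 7. CRIPTO differed by 0.18 ± 0.15, LEFTY1 by 0.11 ± 0.06 and LEFTY2 by 0.06 ± 0.08 (limma, adjusted p = 0.591, 0.402 and 0.778). CRIPTO was at 0.04 without the day 21 array of ethanol alone and at 0.34 without the day 7 one, where LEFTY1 was at 0.06. Among the 31 other pathway genes none passed for ethanol in limma and 6 had an unadjusted p under 0.05, a share near that of all genes, with a median effect of 0.06 against 0.02 for all genes tested. The largest were INHBE (0.39 ± 0.12), PCSK5 (0.23 ± 0.05) and WNT3 (0.22 ± 0.06), each higher in 4 of 4 pairs (limma, adjusted p = 0.163, 0.108 and 0.126). The INHBE pairs ran from 0.11 to 0.86, the highest at day 7 without FA.

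**Figure D4:**
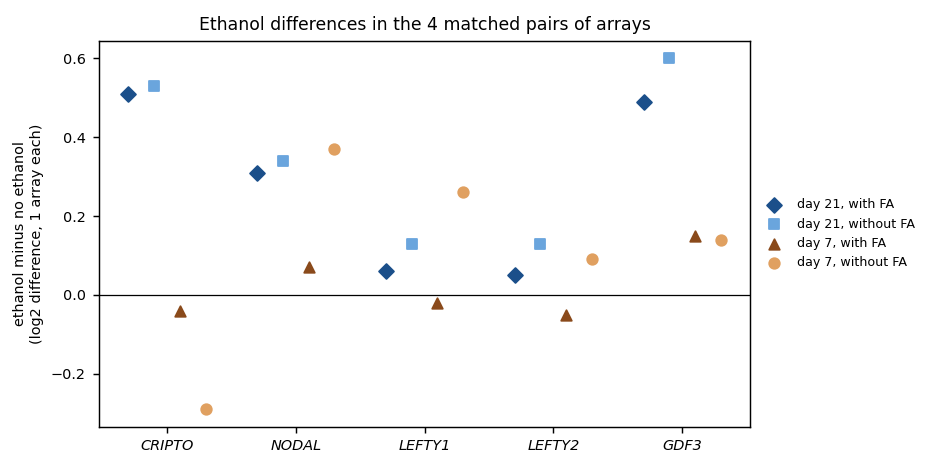
Ethanol minus no ethanol (log2 difference, 1 array each) for each member in the 4 matched pairs of arrays. At day 21 the CRIPTO pairs lie at 0.51 and 0.53 and the GDF3 pairs at 0.49 and 0.60. At day 7 the CRIPTO pairs lie at -0.04 and -0.29 and the GDF3 pairs at 0.15 and 0.14.

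At day 21 both ethanol arrays had higher CRIPTO, GDF3, NODAL and LEFTY1 than both arrays without ethanol, as did 24.8% of genes tested. With the ethanol by day term in the model, chosen as a comparison after the values were seen, ethanol differed from no ethanol at day 21 by 0.54 ± 0.07 for GDF3 (limma, adjusted p = 0.0548) and by 0.52 ± 0.14 for CRIPTO (limma, adjusted p = 0.281). At day 7 the same model gave 0.15 ± 0.07 for GDF3 and -0.16 ± 0.14 for CRIPTO (limma, adjusted p = 0.327 and 0.61). None of these passed. The background was 0.131% of genes at day 21 and 0.677% at day 7. Put the other way, CRIPTO at day 21 was 3.80-fold lower than at day 7 with ethanol and 6.10-fold lower without ethanol, and GDF3 was 2.57-fold lower with ethanol and 3.38-fold lower without ethanol. Both genes passed in each of these day tests, as did 28.3% of all genes with ethanol and 35.9% without ethanol.

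The ethanol difference of CRIPTO was positive in both day 21 pairs and negative in both day 7 pairs, a pattern shown by 5.32% of genes tested. The test of that difference, the ethanol by day interaction, did not pass for any member (limma; 2 of 4, and 7.48% of all genes, had an unadjusted p under 0.05), and it passed for 0.00816% of all genes. It was 0.68 ± 0.19 for CRIPTO (limma, adjusted p = 0.448) and 0.40 ± 0.09 for GDF3 (limma, adjusted p = 0.352). With all 3 interaction terms in the model CRIPTO passed, at the same 0.68 (limma, adjusted p = 0.0429, with 0.00628 to 1 over all alternatives). That fit left 1 residual degree of freedom and called 83 genes, against 1 with the ethanol by day term alone. Leaving out arrays was chosen after seeing the data. Without ethanol plus FA at day 7 the term was 0.90 for CRIPTO and 0.41 for GDF3. Without ethanol alone at day 7 it was 0.46 for CRIPTO and 0.39 for GDF3. Both of these fits rest on 1 ethanol array at day 7, so only their sizes are given. The interaction was 0.10 ± 0.15 for NODAL, -0.03 ± 0.13 for LEFTY1 and 0.07 ± 0.18 for LEFTY2. In CRIPTO3 it was 0.80 ± 0.29 (limma, adjusted p = 0.597). Marker levels moved in the same direction at day 21: the mean level of the 11 pluripotent markers was 10.01 and 10.09 on the ethanol arrays, with and without FA, and 9.85 and 9.89 on the arrays without ethanol. At day 7 it was 11.11 and 11.08 with ethanol and 11.12 and 11.10 without. Their part in the ethanol differences was not tested.

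With FA no gene passed (limma, 0% of 12254 genes, with 121 at an unadjusted p under 0.05, none of them a member). GDF3 was lower with FA in 4 of 4 pairs, with differences from -0.21 to -0.10, as 4.54% of genes tested were, with an effect of -0.15 ± 0.08. CRIPTO differed by -0.30 with ethanol and -0.28 without it at day 21, and by 0.24 with ethanol and -0.01 without it at day 7. LEFTY2 differed by 0.24 with ethanol and 0.32 without it at day 21, and by -0.18 with ethanol and -0.03 without it at day 7. Positive pairs at day 21 and negative ones at day 7 were seen for 8.08% of genes tested. The FA by day interaction of LEFTY2 was 0.39 ± 0.10 (limma, adjusted p = 0.403). FA effects were 0.06 ± 0.07 for NODAL and -0.08 ± 0.06 for LEFTY1. Ethanol by FA interactions did not pass for any member, from -0.18 (LEFTY1) to 0.12 (CRIPTO), and 0% of genes passed that test or the FA by day test (limma, with 100 and 1496 genes at an unadjusted p under 0.05).

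At day 21 CRIPTO and GDF3 had the same order of treatments, from high to low ethanol, ethanol and FA, untreated, FA, and the mean of the 11 pluripotent markers had that order as well. How many of all genes had this order was not counted. Neighbours in it differed by 0.23 to 0.30 for CRIPTO and by 0.10 to 0.39 for GDF3, against a residual SD of the fit for a single array of 0.21 and 0.12. A difference between 2 arrays varies more than a single array, so such SDs understate the spread of these gaps. At day 7 neighbours differed by 0.01 to 0.24 for CRIPTO and by 0.01 to 0.14 for GDF3, and the orders of the 2 genes were not the same. For NODAL, LEFTY1 and LEFTY2 neighbours within a day differed by at most 0.19, 0.26 and 0.19, against residual SDs of 0.10, 0.09 and 0.12.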

How the data were processed

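Expression was measured in 9 samples on single-channel Affymetrix whole-transcript arrays, 1 array per condition. The authors deposited log2 expression values normalized by RMA; the submitters' processing notes name Expression Console 1.3.1, and the log base was read from the values (2.489 to 14.306). No build was given in the sources used here. Each gene was read from the brightest cluster naming it alone (18417 genes), and 12254 exceeding 7.7128 on an array were tested. Limma 3.58.1 in R 4.3.3 fitted ethanol, FA, day and an undifferentiated term (4 residual degrees of freedom), and interactions singly (3 residual degrees of freedom). All 3 interactions together left 1 residual degree of freedom. Scripts were tested on simulated data. NODAL estimates come from the fit without the filter. The members, lists and tests were chosen with earlier results of these data known, and motifs with the sequences seen. Named genes were the members, pathway genes past a threshold or largest for ethanol, and the 5 most similar genes per member; other genes were chosen after their values were seen. The number of arrays limits the precision.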

Additional observations from a re-analysis of the deposited data

Results flagged for a closer look

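The ethanol effect on CRIPTO was 0.68 higher at day 21 than at day 7 on the log2 scale. Both day 21 pairs were higher with ethanol (0.51 and 0.53) and both day 7 pairs lower (-0.04 and -0.29), as for 5.32% of genes tested, and the interaction did not pass (limma, adjusted p = 0.448).

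The FA effect on LEFTY2 was 0.39 higher at day 21 than at day 7. Both day 21 pairs were higher with FA (0.24 and 0.32) and both day 7 pairs lower (-0.18 and -0.03), as for 8.08% of genes tested, and the interaction did not pass (limma, adjusted p = 0.403).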

How the results depend on the processing

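The day effects of CRIPTO and GDF3 kept their direction and their side of the threshold in 30 of 30 alternatives, from -2.43 to -2.13 and from -1.62 to -1.50 with 1 array left out. Over all member results, 340 of 379 alternatives kept both, 35 reversed in sign, 3 came to pass and 1 no longer passed; the cause was not tested. The LEFTY1 day effect was 0.05 with arrays centred on their median and 0.01 without ethanol in the ethanol by day model. The CRIPTO ethanol effect was -0.16 within day 7, and the FA effects within day 7 were 0.12 (CRIPTO) and -0.11 (LEFTY2). The 84 genes called for ethanol became 54 without the filter, 155 with an intensity trend and 16 within day 21. The ethanol by day term of CRIPTO passed at 0.68 with all 3 interaction terms (limma, adjusted p = 0.0429), where 83 genes passed, against 1 with that term alone and 0 without the filter. With 1 array left out, the ranges were as follows. The day effect was -0.05 to 0.04 for LEFTY1 and -0.00 to 0.14 for LEFTY2. Ethanol calls ran from 0 to 212, with 212 and 129 when the ethanol or the ethanol plus FA array of day 7 was left out and 0 to 3 when any other embryoid body array was, and the ethanol effect from 0.04 to 0.34 for CRIPTO, 0.06 to 0.15 for LEFTY1 and -0.01 to 0.13 for LEFTY2. The CRIPTO FA effect was -0.25 to 0.05. The CRIPTO difference from undifferentiated cells was -1.13 to -0.95, with 2107 to 4825 genes called (2107 without untreated day 7). The ethanol by day term was 0.46 to 0.90 for CRIPTO, 0.35 to 0.44 for GDF3, -0.16 to 0.10 for LEFTY1 and -0.10 to 0.25 for LEFTY2, with 0 to 1112 genes called, 329 when ethanol alone at day 7 was left out and the highest when ethanol plus FA at day 7 was left out. The ethanol by FA term was -0.29 to 0.53 for CRIPTO, -0.28 to 0.05 for LEFTY2 and -0.21 to 0.11 for GDF3, and the FA by day term of GDF3 was -0.19 to 0.15. Reading members from clusters that name several genes gave no value, since 0 such clusters name a member. The labels carry no replicate numbers, so pairs were arrays alike in the other factors. With these pairs as a block, no member's day, ethanol or FA call changed, and 126 genes were called for ethanol. Leaving out arrays for the interaction terms, and the ethanol and FA effects within 1 day, were chosen after seeing the data.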
